A study of Mus musculus with 5 samples.

Results

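Expression of 8 enzymes of arginine and ketone body metabolism was followed in embryonic mouse cortical cells that had been made to express Ptf1a, a basic helix-loop-helix factor of inhibitory neuron and pancreatic development. The genes are Ass1 and Asl (arginine synthesis), Arg1 and Arg2 (arginine breakdown), Nos1 (nitric oxide synthesis) and Bdh1, Bdh2 and Oxct1 (ketone body metabolism). They were taken by symbol from a table of 23234 genes, and all 8 were present in it. They had been selected on the pathways named and on the 2 group values of this same comparison, so their differences are given as a description and support nothing beyond themselves. The brains were of the CD1 strain. Electroporation of the cortex took place at E12.5 (embryonic day), using a Ptf1a and GFP construct in 3 samples and a GFP-only construct in 2 control samples. All were harvested at E15.5, when GFP-expressing cells, labelled as cortical pyramidal cells, were purified by fluorescence from 3 to 6 pooled brains per sample. Both groups therefore share electroporation, GFP and sorting, and the promoter driving the constructs is not given in the sources used here.

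Ass1 joins citrulline and aspartate into argininosuccinate, and Asl splits that product into arginine and fumarate. Together they rebuild arginine from citrulline, outside the liver as well as in the urea cycle. Arginine is then consumed by the arginases, which give ornithine and urea, or by nitric oxide synthases, which give nitric oxide and return citrulline. Ketone bodies are made from fatty acid-derived acetyl-CoA and are an important fuel of the developing brain. Bdh1 interconverts hydroxybutyrate and acetoacetate in mitochondria, and Oxct1 commits acetoacetate to use as fuel. Bdh2 is a cytosolic dehydrogenase of the same substrate type that has also been linked to siderophore-like iron binding.

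Of the 8 enzymes, Ass1 and Bdh2 rose about 20-fold in the Ptf1a group, and the other 6, at 0.624 to 1.12 times their control values, were not called or had no test. Levels are FPKM, fragments scaled to transcript length and library size, and each is the authors' single value for a group, so no spread between samples can be shown. The words rose and fell are kept for genes where the authors' q-value, their p-value adjusted over all tested genes, was under 0.05. Among the 6 enzymes with a test, 2 rose and 0 fell, against 37.7% of all 11876 tested genes called in either direction, 18.7% higher and 19.1% lower. Ptf1a itself went from 0.210 to 38.9 FPKM, a value in which construct and endogenous transcripts are not separated.

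**Figure D1:**
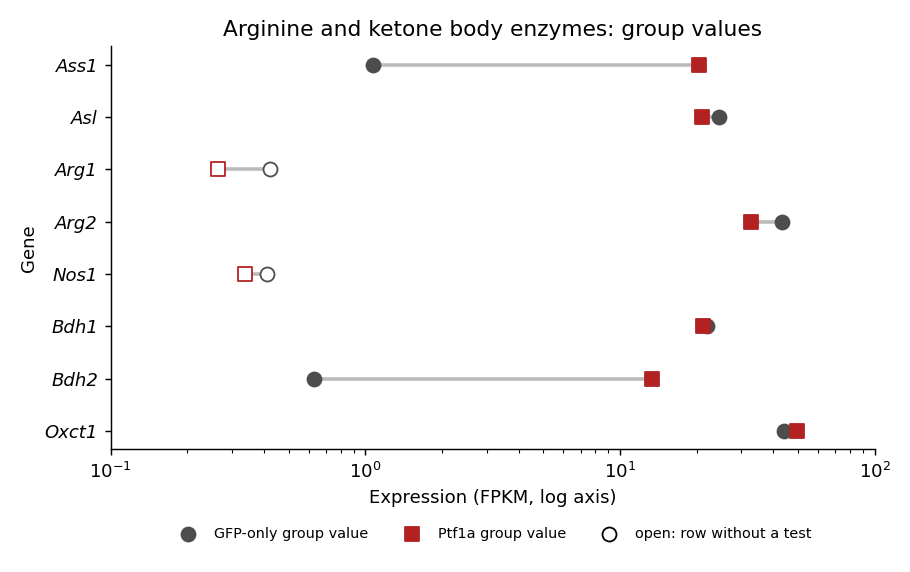
Group values of the 8 enzymes in FPKM on a log axis, with circles for GFP-only and squares for Ptf1a and open symbols for rows without a test. Ass1 and Bdh2 move from near 1 FPKM to 20.5 and 13.4 FPKM, while the paired symbols of the other genes lie less than 2-fold apart.

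The sequences before the starts of Ass1 and Bdh2 are shown because these are the members that rose. With a single value per group, a shared change across samples cannot be seen. They come from the RefSeq promoter table on GRCm38.p6, plus strand. The first is chr2:31470020-31470206 for Ass1, cut where the first annotated exon of the gene begins in GENCODE M21. The second is chr3:135280971-135281220 for Bdh2. Capitals mark CANNTG, the E-box bound by basic helix-loop-helix factors; TTCCCA, the Rbpj-type part of the element bound by the Ptf1a complex, was also searched on both strands and had no match in either window.
Ass1: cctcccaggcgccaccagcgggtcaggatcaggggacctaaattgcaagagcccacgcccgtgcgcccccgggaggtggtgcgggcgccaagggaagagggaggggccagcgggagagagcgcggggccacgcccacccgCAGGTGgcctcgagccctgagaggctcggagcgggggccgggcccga
Bdh2: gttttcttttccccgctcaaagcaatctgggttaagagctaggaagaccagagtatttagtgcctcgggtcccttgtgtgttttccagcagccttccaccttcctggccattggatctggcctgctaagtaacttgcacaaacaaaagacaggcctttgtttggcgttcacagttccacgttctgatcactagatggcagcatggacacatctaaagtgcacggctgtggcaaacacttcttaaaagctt

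In the full 250 bases before the RefSeq start, Ass1 held 2 E-boxes. The first, CAGGTG, begins 110 bases before the start, and the second, CACGTG, begins 36 bases before it and lies beyond the printed run. Bdh2 held none. At least 1 E-box was present in 66.2% of the 32851 windows of that length, and TTCCCA in 21.6%. The motif content therefore differed between the risen genes, and a match or its absence is a description of these windows only. The windows also differed in base composition, with 75.6% G and C for Ass1 and 48.0% for Bdh2 against a median of 52.4%. Windows were listed for 5 of the 8 enzymes. Besides Ass1 and Bdh2, Nos1, which had no test, and the second start of Bdh1 held 1 E-box each. The first start of Bdh1 held TTCCCA, and Oxct1 held neither.

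Arginine synthesis showed an uneven change at its consecutive steps. Ass1 (chromosome 2, 31325790 to 31376190, mm9) stood at 1.07 FPKM in the GFP-only group and 20.5 FPKM in the Ptf1a group, a 19.2-fold rise. The authors' deposited table gives it a log2 fold of 4.26 with q = 0.000329. That q is the smallest the table holds, shared by the 1803 tested genes at its lowest p of 5e-05, so it sets no order among them. Dividing that log2 fold by the deposited test statistic gives an implied standard error of 0.53, and the statistic itself, 8.10, is the difference in units of that error. The authors' p does not follow from such an error. Read as normal deviates, with the p adjusted and cut at 0.05, the statistics called 724 of all tested genes, against 4480 by the authors' q. Asl (chromosome 5, 130487373 to 130500201, mm9) stood at 24.4 and 21.0 FPKM. Its log2 fold in the authors' deposited table was -0.22 with q = 0.211, smaller than its implied standard error of 0.27. In control cells Asl was 22.8 times as abundant as Ass1 per transcript length, and with Ptf1a the ratio was 1.03. The transcripts of both steps thus stood at nearly equal levels in the Ptf1a group and far apart in the control group.

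The arginases and Nos1 did not pass the test or had none. Arg2 (chromosome 12, 80231775 to 80273445, mm9), the mitochondrial arginase, stood at 43.3 and 32.6 FPKM. The authors' deposited table gives a log2 fold of -0.41 with q = 0.197, within its implied standard error of 0.54. Its locus is shared in the table with Vti1b, a vesicle SNARE gene at 203 and 132 FPKM that fell, and reads could have been divided between the overlapping genes. Arg1 (chromosome 10, 24635013 to 24647276, mm9), the cytosolic arginase of liver and of some macrophages, had 0.423 FPKM in controls and 0.264 FPKM with Ptf1a, and its row carried no test. Arg2 thus made up nearly all arginase signal, at 102 times Arg1 in the control group and 124 times in the Ptf1a group. Nos1 (chromosome 5, 118317128 to 118403820, mm9), the neuronal nitric oxide synthase, had 0.411 and 0.336 FPKM, also untested. No difference in Arg1 or Nos1 can be read from these values, since the counts behind them are unknown.

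Ketone body enzymes divided in the same manner, with a large rise in a single member. Bdh2 (chromosome 3, 134944185 to 134967389, mm9) stood at 0.629 FPKM in the GFP-only group and 13.4 FPKM in the Ptf1a group, a 21.3-fold rise. The authors' deposited table gives a log2 fold of 4.42 with the same lowest q, and the implied standard error was 0.84, wider than that of Ass1. Bdh1 (chromosome 16, 31422383 to 31458987, mm9) stood at 22.0 and 21.2 FPKM. Its log2 fold in the authors' deposited table was -0.06 with q = 0.752, against an implied standard error of 0.26. In controls Bdh1 was 35.1 times as abundant as Bdh2, and with Ptf1a 1.58 times. The sum of both dehydrogenases went from 22.7 to 34.6 FPKM, a gain carried by Bdh2. Oxct1 (chromosome 15, 3970111 to 4105344, mm9), the transferase that activates acetoacetate, stood at 44.2 and 49.6 FPKM. Its log2 fold in the authors' deposited table was 0.17 with q = 0.211, against an implied standard error of 0.24. The table places BC037032, listed at 0.0440 and 0.155 FPKM, in the same locus as Oxct1.

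**Figure D2:**
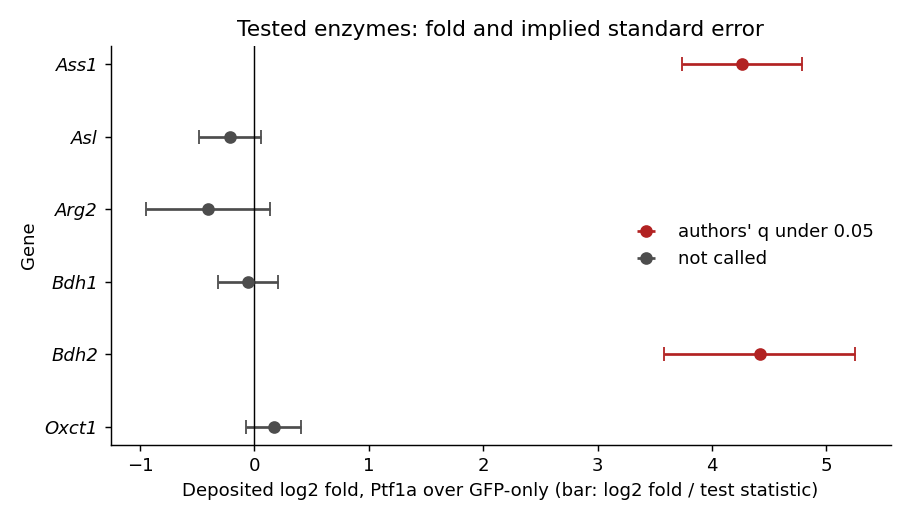
Deposited log2 fold of the 6 tested enzymes, Ptf1a over GFP-only, with bars of 1 implied standard error (log2 fold divided by test statistic). The authors' q does not follow from these bars. Ass1 and Bdh2 lie above 4, and the bars of Asl, Arg2, Bdh1 and Oxct1 cross 0.

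In the control group the order of levels was Oxct1, Arg2, Asl, Bdh1, Ass1, Bdh2, Arg1 and Nos1. With no spread between samples, neighbours as close as Oxct1 and Arg2, Asl and Bdh1, or Arg1 and Nos1 cannot be ranked. In the Ptf1a group Ass1 had moved up to the level of Bdh1 and Asl (21.2 and 21.0 FPKM), and Bdh2 lay below them at 13.4 FPKM. The 4 tested enzymes without a call all stood between 21.0 and 49.6 FPKM in both groups. Among the 1487 tested genes with a mean of 20 to 60 FPKM, the median difference in log2(FPKM + 0.1) was -0.12, with a 10th percentile of -0.56 and a 90th of 0.32. The differences of Asl, Arg2, Bdh1 and Oxct1 on that scale, -0.21, -0.41, -0.05 and 0.17, all lay inside that range. The limits of 20 and 60 FPKM enclose the enzymes' own values. Of the 1487 genes 39.0% were called, so a place inside the range does not show an absence of change.

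By size, the rises of Bdh2 and Ass1 were the 48th and the 52nd largest among all tested genes on the log2(FPKM + 0.1) scale, at 4.21 and 4.14. A called rise of at least 3 on that scale, a limit chosen after the values were seen, was met by 68 genes, or 0.573% of those tested. Of 3089 tested genes with 0.5 to 2 FPKM in controls, limits also chosen with the values known, 9 exceeded 10 FPKM with Ptf1a. Ass1 and Bdh2 are among these 9, and the median of the 3089 was 1.23 FPKM in the Ptf1a group.

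**Figure D3:**
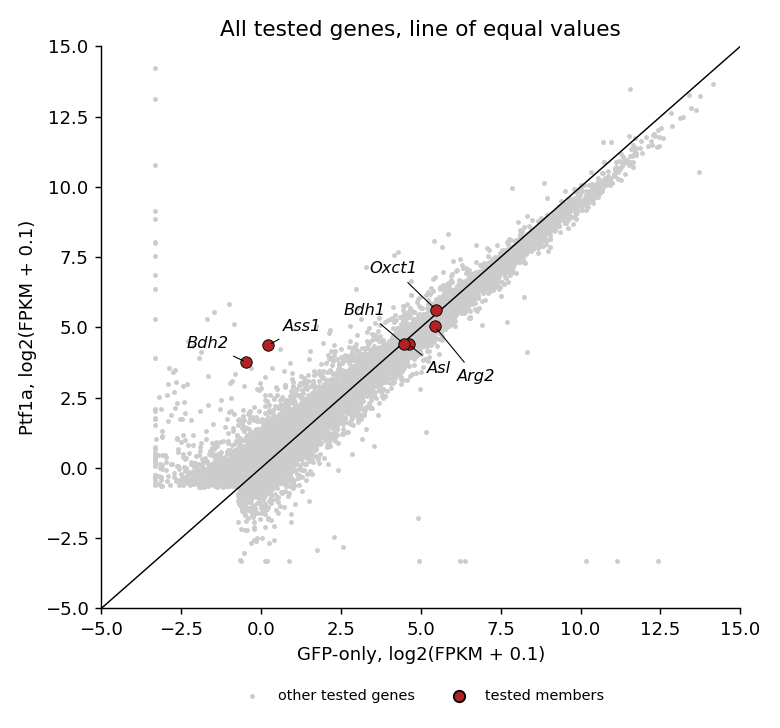
All tested genes by log2(FPKM + 0.1) in GFP-only (x) and Ptf1a (y), with the 6 tested enzymes marked and the line of equal values drawn. Ass1 and Bdh2 lie far above the line, and Asl, Arg2, Bdh1 and Oxct1 lie close to it.

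The genes whose pair of group values lay nearest to that of Ass1 were sought among 10744 other named, tested genes. With only 2 group values per gene, nearness means a like level and a like difference and nothing more. The nearest was Nupr1, a small stress-induced nuclear protein gene (1.05 to 19.0 FPKM), at a distance of 0.11 on the log2(FPKM + 0.1) scale. It was followed by the transcription factor gene Ebf1 (1.41 to 18.7 FPKM) at 0.39 and the pancreatic lipase-related gene Pnliprp1 (1.18 to 11.6 FPKM) at 0.83. Bdh2 itself came next at 0.91, and then the pentraxin gene Ptx3 (1.78 to 13.1 FPKM) at 0.94.

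The genes next to the risen enzymes, taken by position and outside the naming rule, did not share rises of that size. Ass1 had no overlapping gene in the table. Its neighbours Ncs1, 175 kb away (27.5 and 26.2 FPKM), and Fubp3, 52.1 kb away (2.26 and 2.77 FPKM), were not called. Bdh2 also had its locus to itself. Cenpe, a mitotic kinesin gene 7.68 kb from it, rose from 1.45 to 3.26 FPKM, and Nhedc2, 3.27 kb away on the other side, had values of 0.372 and 0.134 FPKM and no test.

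Genes around the enzymes in the same pathways were then described as 7 lists. Of 76 genes listed, 74 were in the table and 58 had a test. Among these 58, 16 rose and 10 fell, or 44.8% called, against 37.7% of all tested genes. The counts of each list are to be set beside the 18.7% of all tested genes that rose and the 19.1% that fell. Each list's median difference is on the log2(FPKM + 0.1) scale, where the median of all tested genes was -0.01. The lists had been drawn up with earlier results of these data known. With the authors' statistic treated as a normal deviate, 3 rises (Acadl, Acaa2 and Ddah1) and 0 falls were left of the list genes. Ass1 and Bdh2 also stayed called, but they had been selected on this same comparison, so that adds no support.

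For ketone use and monocarboxylate transport, 1 of 6 tested genes rose and 0 fell, with a median of 0.34. Slc16a1, a carrier of lactate, pyruvate and ketone bodies, rose from 0.312 to 0.796 FPKM. Acat2 (178 and 199.7 FPKM) and Aacs, the cytosolic ketone-activating enzyme (16.7 and 13.9 FPKM), were not called. Oxct2a, a paralog of Oxct1 chosen after its value was seen, was listed at 0 in both groups.

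Mitochondrial fatty acid oxidation, the source of acetyl-CoA for ketone bodies, rose in 8 of 14 tested genes and fell in 0, with a median of 0.71. The called rises ranged from 0.69 to 1.76 on the log2(FPKM + 0.1) scale, far below those of Ass1 and Bdh2. Acadl, the long-chain acyl-CoA dehydrogenase, rose from 2.21 to 7.70 FPKM, and Cpt1a, the carnitine palmitoyltransferase that admits fatty acids to mitochondria, from 0.117 to 0.569 FPKM. Hadh rose from 9.16 to 16.6 FPKM and Acaa2, the thiolase of the final step, from 25.1 to 43.5 FPKM. Echs1 (139 and 143 FPKM) and the carnitine carrier Slc25a20 (33.7 and 37.3 FPKM) were not called.

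**Figure D4:**
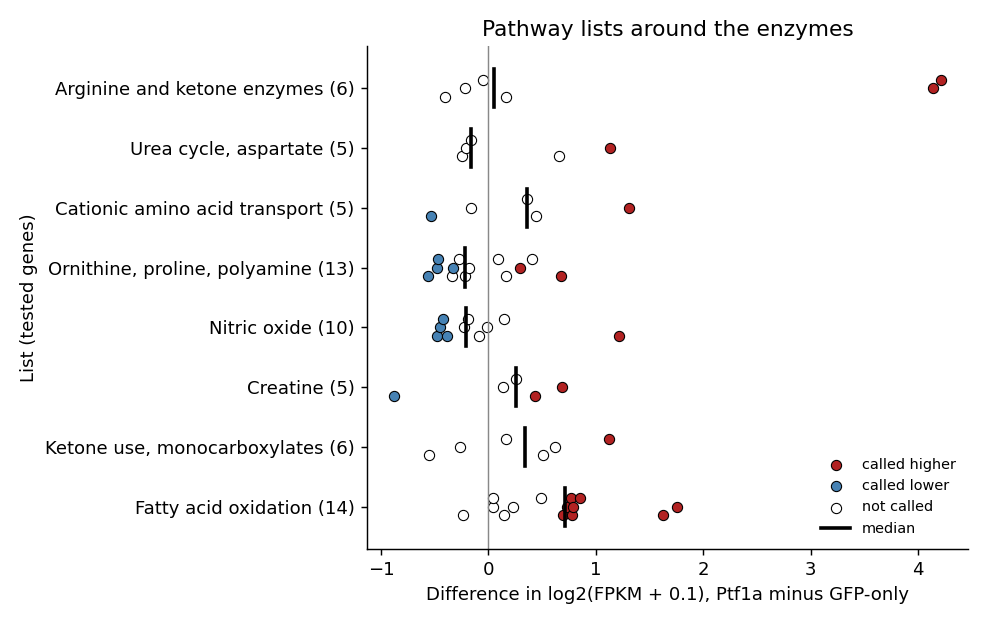
Difference in log2(FPKM + 0.1), Ptf1a minus GFP-only, for each tested gene among the 8 enzymes and in the 7 pathway lists, coloured by call, with the list median as a bar. Ass1 and Bdh2 stand above 4, and the called rises of fatty acid oxidation lie between 0.69 and 1.76.

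In the rest of the urea cycle and the aspartate supply of Ass1, 1 of 5 tested genes rose and 0 fell, with a median of -0.16. Slc25a13, a mitochondrial aspartate and glutamate carrier, rose from 0.345 to 0.874 FPKM. The aspartate aminotransferases Got2 (65.8 and 58.7 FPKM) and Got1 (45.1 and 38.0 FPKM) were not called. Cps1 and Otc, chosen after their values were seen as the liver enzymes that lead to citrulline, had no test and stood under 0.1 FPKM in both groups. Cationic amino acid transport had 1 risen and 1 fallen of 5 tested genes, with a median of 0.36. The arginine transporter Slc7a3 rose from 0.236 to 0.733 FPKM and Slc7a1 fell from 0.688 to 0.443 FPKM, while Slc3a2 (74.1 and 66.3 FPKM) and Slc7a6 (3.24 and 4.18 FPKM) were not called.

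Downstream of the arginases, 2 of 13 tested genes of ornithine, proline and polyamine metabolism rose and 4 fell, with a median of -0.22. The risen genes were Oat, the ornithine aminotransferase (52.6 to 64.6 FPKM), and Prodh, which breaks down proline (0.852 to 1.42 FPKM). The fallen genes were the proline-forming reductases Pycr1 (11.9 to 8.02 FPKM) and Pycrl (156 to 112 FPKM), and the polyamine enzymes Odc1 (25.6 to 20.3 FPKM) and Sms (42.3 to 30.5 FPKM). Oaz1 (2576 and 2134 FPKM) and Sat1 (20.2 and 22.6 FPKM) were not called.

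Around Nos1, 1 of 10 tested nitric oxide genes rose and 4 fell, with a median of -0.21. Ddah1, which removes methylated arginines that inhibit nitric oxide synthases, rose from 5.86 to 13.7 FPKM, while Ddah2 (432 and 476 FPKM) was not called. Nosip (64.5 to 47.2 FPKM), the tetrahydrobiopterin enzymes Pts (83.8 to 64.1 FPKM) and Spr (30.0 to 22.3 FPKM), and the guanylate cyclase subunit gene Gucy1a2 (0.510 to 0.338 FPKM) fell, and Qdpr (90.2 and 79.0 FPKM) was not called. Of creatine genes 2 of 5 rose and 1 fell, with a median of 0.25. Gamt, the methyltransferase of creatine synthesis, rose from 11.8 to 19.0 FPKM and the creatine transporter Slc6a8 from 2.40 to 3.27 FPKM. The mitochondrial kinase Ckmt1 fell from 18.6 to 10.1 FPKM, and Ckb (894 and 983 FPKM) and Gatm, which starts from arginine (1.87 and 2.24 FPKM), were not called.

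Cell type markers moved between the groups as well, where 18.7% of all tested genes rose and 19.1% fell. In these bulk samples a different share of cells of a type and a different amount of RNA per cell cannot be told apart. All 9 radial glia markers rose, from a summed 1804 to 3462 FPKM (1.92-fold; Fabp7 1652 to 3095 FPKM), with single markers between 1.87-fold and 5.76-fold. Of 8 pyramidal markers 6 fell and 0 rose (summed 1828 to 1274 FPKM; Neurod6 1717 to 1190 FPKM). Of 8 tested interneuron markers 6 rose and 0 fell (summed 153 to 207 FPKM), and Npy (100.3 and 97.5 FPKM) was not called. The sum of astrocyte markers was 5.49 FPKM in controls and 2.27-fold that with Ptf1a, with 1 of 3 tested risen (Aldh1l1, 3.46 to 9.93 FPKM). That gain was mostly Aldh1l1, since Gja1 (0.947 and 0.963 FPKM) and Slc1a2 (1.04 and 1.11 FPKM) were not called. Myeloid markers, relevant to Arg1, summed to 19.7 and 14.9 FPKM with 0 risen and 1 fallen of 8 tested, and C1qb (4.20 and 3.24 FPKM) was not called. Vascular markers summed to 4.66 and 9.34 FPKM with 3 of 4 tested risen and 0 fallen, and Cldn5 (2.87 and 4.09 FPKM) was not called. The risen vascular markers, named after their values were seen, were Pdgfrb (0.0286 to 1.20 FPKM, 42.2-fold), Esam (0.689 to 1.95 FPKM) and Rgs5 (0.623 to 1.55 FPKM). The fold of Pdgfrb starts from a control value near 0. The other 6 of the 10 vascular markers had no test and stood at 0.205 FPKM or less in both groups. Of these, Tek and Flt1 were lower with Ptf1a, and Pecam1, Cdh5, Kdr and Cspg4 were higher. Red blood cell markers summed to 150 and 62.7 FPKM with 3 of 6 tested fallen (Hbb-b2, 90.2 to 40.7 FPKM; Hbb-bh1 was at 0 in both groups). Both tested markers of the 6 for choroid plexus and meninges fell. The sum of the 6, mostly Ttr (31.4 to 6.92 FPKM), went from 34.8 to 9.45 FPKM. The 4 without a test, Kcnj13, Folr1, Col1a1 and Col1a2, were higher with Ptf1a, at 0.287 FPKM or less. The part of any of these cell types in the rises of Ass1 or Bdh2 was not tested.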

How the data were processed

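RNA from the sorted cells was amplified by a low-input method and sequenced in paired ends, per the labels' protocols. The submitters' processing notes name Cuffdiff, Cufflinks 2.1.1, TopHat2 2.0.8, CASAVA 1.8.2 and the build mm9; annotation and settings are not given in the sources used here. The deposited table holds 1 FPKM value per gene and group, a log2 fold, a p-value, a q-value and a signed score (the test statistic), all made by the authors, per the file headers. Its group headed PIG was read as Ptf1a, since the other heading is GFP. It gives no depth and no spread between samples.

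Of 23234 rows, 11876 had a test and 11194 were marked as without one. The deposited q under 0.05 matched the table's mark in all 23234 rows. As an alternative, calls came from the normal p of the deposited statistic, which 45 tested genes lacked. Log2 differences computed here are log2(FPKM + 0.1), Ptf1a minus GFP-only, which understates weak genes. Loci are printed with starts counted from 1: 4968 of 20792 loci matched an annotated transcript's span when starts were read as counting from 0, and 629 when read as counting from 1.

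The members and lists were chosen with earlier results of these data known. Named are the 8 enzymes, Ptf1a, the called genes of each list (the 4 largest where over 6), up to 2 uncalled genes with the highest mean, the highest marker of each marker list, and the 5 genes nearest to Ass1. Oaz2, Amd1, Hba-a1 and Hbb-b1 had no row under those symbols. Some genes of the lists, and 1 list with them, are not reported here for reasons unrelated to their values, and are left out of the list counts. Benjamini-Hochberg adjustment recomputed from the deposited p differed from the deposited q by at most 5.2e-07. Python 3.11.15, pandas 2.3.3 and scipy 1.17.1 were used.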

Additional observations from a re-analysis of the deposited data

How the results depend on the processing

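Ass1 and Bdh2 stayed called by the normal p of the deposited statistic. They had been selected on this same comparison, so that adds no support. Given their q, level and fold, they could not lose the call at q under 0.01 or under 0.1, with at least 1 FPKM or at least 2-fold. The 4 tested enzymes without a call had q of 0.197 to 0.752 and log2 folds smaller than their implied standard errors. They could therefore gain no call at q under 0.1 or by the normal p. The other settings only narrow the main call and could not have added one. The 8 differences were also computed with pseudocounts of 0.01 and 1 and after centring on the median. A pseudocount cannot change the direction of a difference. The median subtracted in centring was -0.037, smaller in size than any of the 8 differences. All 8 directions therefore held by arithmetic and add no support. With pseudocounts of 0.01 and 1 and after centring, Ass1 gave 4.25, 3.38 and 4.18 in place of 4.14. Bdh2 gave 4.39, 3.15 and 4.25 in place of 4.21, so with a pseudocount of 1 the difference of Ass1 was the larger. In the same settings the untested Arg1 gave -0.66, -0.17 and -0.49 in place of -0.52, and Nos1 gave -0.28, -0.079 and -0.19 in place of -0.23. Among all genes the normal p called 392 higher and 332 lower and the 2-fold limit 792 and 222, in place of 2217 and 2263. The 2-fold limit was set on the log2(FPKM + 0.1) scale, which understates weak genes, and not on the plain ratio of FPKM. Over the pathway lists the 16 rises became 3 (Acadl, Acaa2 and Ddah1) by the normal p and 6 at 2-fold, and the 10 falls became 6 at q under 0.01 and 0 in both other settings. In fatty acid oxidation the 8 rises became 2 by the normal p and 2 at 2-fold. At q under 0.01 the lists lost Acads, Gucy1a2, Oat, Odc1, Prodh, Slc6a8, Slc7a1, Slc7a3 and Spr. At q under 0.1 they gained Aacs, Aldh4a1, Got1, Ppargc1a, Slc16a6, Slc16a7, Slc25a15 and Slc7a6, and with at least 1 FPKM they lost Cpt1a, Gucy1a2, Slc16a1, Slc25a13, Slc7a1 and Slc7a3. Of 70 counts recomputed for single lists, 31 moved by over 1.5 times, most of them from counts of 1 or 2; the cause was not tested beyond the stricter or looser limit itself. The 5 genes nearest to Ass1 were the same with a pseudocount of 1. No paired analysis was possible because the table holds 1 value per group, and for the same reason no sample could be left out.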
